A study of Homo sapiens with 24 samples.

Results

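Peaks precipitated with an antibody to the MYC tag were compared between osimertinib-resistant and parental wild-type HCC827 cells, a human lung adenocarcinoma line that depends on a mutated and amplified EGFR gene. All peaks of the resistant list (2767) and all peaks of the parental list (1005) were taken, 3772 of the 13347 peaks in the 8 lists of the series. Resistant cells (labelled HCC827-OR) were kept in 1 µM osimertinib, an inhibitor of mutant EGFR, and parental cells were untreated. Both groups were wild-type, with no tagged protein by their labels, and each list combines 2 replicates labelled as biological. How the resistant line was derived, and whether it is a clone, is not given in the sources used here. For comparison, 2 other resistant and parental pairs were read in the same way, from cells overexpressing METTL7A, a methyltransferase-like protein, with a MYC and a FLAG tag attached (MYC-tag antibody, 3165 resistant and 2271 parental peaks) and from wild-type cells precipitated with an IgG isotype control (2529 and 1444 peaks). Those METTL7A-expressing and IgG cells followed the same drug scheme, with resistant cells in osimertinib. Peak lists cannot show the cell type, and the cluster of peaks around EGFR, the amplified gene of this line, was present in both lists.

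The MYC tag is a short stretch of the human MYC protein. In wild-type cells its antibody can therefore precipitate MYC itself, or chromatin that sticks to antibody and beads. MYC is a transcription factor that binds DNA together with MAX, typically at the E-box sequence near the starts of active genes. Amplified DNA is present in many copies, so it yields more reads in any precipitate, IgG included. Cells that survive EGFR inhibitors often carry new or altered amplifications, which is why the chromosomal places of the peaks are followed here.

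Of 14 gene starts under the peaks named in the text, 10 have a RefSeq promoter in the table used here, and 6 are printed because MYC binds E-boxes: the 3 that hold one and, for contrast, 3 that hold none. The E-box is the motif CACGTG, which reads the same on both strands and is in capitals. They are RefSeq promoter sequences from the GRCh38.p14 build, from 250 bases before to 50 bases after the gene's start, 5′ to 3′ on the gene's strand. Peaks in the text are on GRCh37, and gene names were given to them from GRCh37 gene positions entered by hand for 60 genes. The starts of TBK1, CDK4 and SEC61G had a peak in both lists.
TBK1 (chr12:64451870-64452169, plus strand): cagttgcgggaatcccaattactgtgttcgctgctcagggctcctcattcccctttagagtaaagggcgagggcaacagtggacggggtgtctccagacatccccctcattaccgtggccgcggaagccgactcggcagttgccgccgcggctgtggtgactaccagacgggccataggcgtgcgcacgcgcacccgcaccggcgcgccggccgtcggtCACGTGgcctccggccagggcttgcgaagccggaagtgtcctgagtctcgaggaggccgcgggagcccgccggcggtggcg
CDK4 (chr12:57752261-57752560, minus strand): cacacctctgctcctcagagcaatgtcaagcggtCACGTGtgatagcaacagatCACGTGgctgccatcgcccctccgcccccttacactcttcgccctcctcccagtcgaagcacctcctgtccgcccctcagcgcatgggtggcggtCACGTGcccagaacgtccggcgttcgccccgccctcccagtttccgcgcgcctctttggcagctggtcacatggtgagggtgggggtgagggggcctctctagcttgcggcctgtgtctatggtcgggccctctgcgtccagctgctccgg
SEC61G (chr7:54759162-54759461, minus strand): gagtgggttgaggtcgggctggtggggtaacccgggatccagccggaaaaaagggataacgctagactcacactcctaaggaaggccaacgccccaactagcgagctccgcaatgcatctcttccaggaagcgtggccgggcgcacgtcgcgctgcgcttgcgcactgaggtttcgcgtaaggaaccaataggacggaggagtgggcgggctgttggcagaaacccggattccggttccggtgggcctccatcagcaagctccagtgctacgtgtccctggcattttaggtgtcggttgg
The starts of CACHD1 and MDFIC had a peak in the resistant list alone, and that of HOXA9 in the parental list alone.
CACHD1 (chr1:64469879-64470178, plus strand): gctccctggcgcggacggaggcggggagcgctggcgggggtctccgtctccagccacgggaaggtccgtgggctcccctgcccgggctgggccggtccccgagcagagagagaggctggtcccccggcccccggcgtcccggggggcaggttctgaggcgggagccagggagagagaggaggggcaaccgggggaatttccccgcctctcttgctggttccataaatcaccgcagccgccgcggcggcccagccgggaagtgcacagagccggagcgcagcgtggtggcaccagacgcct
MDFIC (chr7:114921844-114922143, plus strand): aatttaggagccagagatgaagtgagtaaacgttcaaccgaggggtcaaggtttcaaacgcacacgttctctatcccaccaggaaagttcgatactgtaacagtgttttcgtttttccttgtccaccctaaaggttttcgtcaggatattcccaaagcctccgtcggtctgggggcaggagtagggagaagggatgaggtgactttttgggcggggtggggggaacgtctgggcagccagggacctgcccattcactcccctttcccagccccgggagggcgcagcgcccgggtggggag
HOXA9 (chr7:27165488-27165787, minus strand): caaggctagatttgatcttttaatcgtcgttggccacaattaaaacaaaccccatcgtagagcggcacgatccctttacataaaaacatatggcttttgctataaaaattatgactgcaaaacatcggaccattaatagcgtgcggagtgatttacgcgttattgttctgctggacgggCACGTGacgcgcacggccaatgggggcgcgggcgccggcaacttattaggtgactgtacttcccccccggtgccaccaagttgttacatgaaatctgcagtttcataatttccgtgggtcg
The TBK1 promoter held 1 E-box, the CDK4 promoter 3 and the HOXA9 promoter 1. The SEC61G, CACHD1 and MDFIC windows held none, nor did those of VSTM2A, FANK1, SYDE2 and LGALSL, so the motif was in 3 of 10. Of 35116 RefSeq promoters of 300 bases, 7.26% held the motif. A match describes these letters and is not a binding site. CpG dinucleotides numbered 15 in MDFIC to 35 in TBK1 over the 6 printed windows, against a median of 14 over all promoters.

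The resistant list was 2.75 times as long as the parental one, and most of its extra peaks were low and widely scattered. The height of a peak is the lower of the −log10 p-values that the authors' peak caller gave in the 2 replicates. Its median was 4.15 in the resistant list (quartiles 3.24 and 4.65, highest 24.0) and 4.40 in the parental list (3.39 and 4.77, highest 15.6). At a height of 5 or more there were 547 resistant and 242 parental peaks (ratio 2.26). Reproducible peaks, those at a global irreproducible discovery rate of 0.05 or less, numbered 63 and 26 (ratio 2.42). Median widths were 595 and 632 bp. Of the 1 Mb bins of the genome with any peak, 818 held resistant peaks only, 409 held both and 166 held parental peaks only. Between the replicates of a list the −log10 p-values had, across peaks, a Spearman correlation of 0.163 in the resistant and 0.217 in the parental list, a description of peaks that share their libraries. Many peaks also share the same few values: 532 resistant peaks had exactly 4.65 in the second replicate, and 230 parental peaks had 4.67 in the first. Read totals are not in the files, which leaves library depth unknown, and a longer list cannot be told apart from a deeper or better enriched library. Likewise, more binding at a place and more copies of its DNA cannot be told apart from peak lists.

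Of 41 chromosome arms with a peak, the short arm of chromosome 11 (11p) held a larger share of the resistant list and the short arm of chromosome 7 (7p) a smaller one. The tested arms called higher were thus 1 of 41 (2.44%) and those called lower 1 of 41 (2.44%), or 4.88% in either direction, at an adjusted p of 0.05 in two-sided Fisher exact tests with Benjamini-Hochberg adjustment over all arms. On 7p lay 217 resistant peaks (7.84%, exact 95% interval 6.87 to 8.91) and 169 parental peaks (16.8%, 14.6 to 19.3), an odds ratio of 0.421 (0.338 to 0.526; exact test, adjusted p = 5.98e-13). On 11p lay 61 resistant peaks (2.205%, 1.69 to 2.82) and 4 parental peaks (0.398%, 0.109 to 1.02), an odds ratio of 5.64 (2.09 to 21.4; exact test, adjusted p = 0.000975). The intervals of both arms do not overlap between the lists. All intervals cover counting error only, and the tests compare 2 lists and take neighbouring peaks as independent, so they do not measure the spread between cultures. Among the other 39 arms, 12 had a 95% interval of the odds ratio within 0.5 to 2. The intervals of the other 27 reached past 2 (13 arms), below 0.5 (8 arms) or both (6 arms), so they leave room for a change of that size. The long arm of the X chromosome came nearest to a call, with 62 resistant peaks (2.24%) and 9 parental peaks (0.896%; odds ratio 2.54, 1.25 to 5.83; exact test, adjusted p = 0.0858). Without adjustment 6 arms passed a p of 0.05 in the exact test, the other 4 being Xq, 5q, 1q and 11q, each with a larger resistant share. Across all 41 arms the shares of the lists had a Spearman correlation of 0.915, a description over arms that differ in length.

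**Figure D1:**
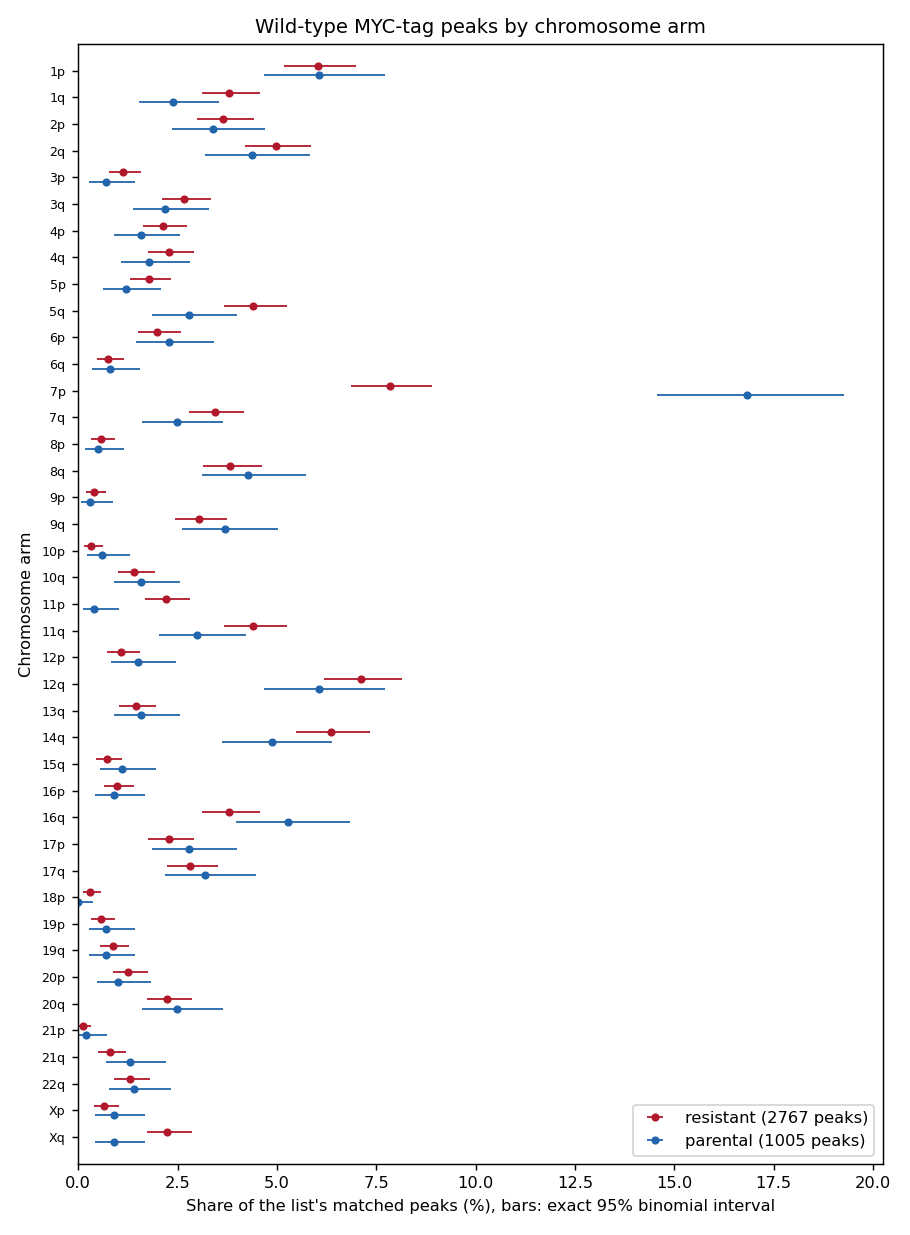
Share of each list's matched peaks on every chromosome arm (%, x axis), with exact 95% binomial intervals as bars; resistant points stand above parental ones. The 7p share is 7.84% in the resistant and 16.8% in the parental list, and the 11p share 2.205% and 0.398%.

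The lower share of 7p came with about the same number of peaks around EGFR in a much longer list. EGFR encodes the receptor tyrosine kinase that osimertinib blocks, and its neighbours VSTM2A, SEC61G, LANCL2 and VOPP1 lie in the same 2 Mb, at 54 to 56 Mb of chromosome 7. That stretch held 139 resistant peaks and 128 parental peaks, a ratio of 1.09, while the rest of the genome held 2628 and 877, a ratio of 2.997. Its share was 5.02% of the resistant and 12.7% of the parental list. On the rest of 7p lay 78 resistant peaks (2.82%) and 41 parental peaks (4.08%), an odds ratio of 0.682 with an interval of 0.458 to 1.03 that includes 1. The share also depended on height. Below a height of 4, 7p held 2.93% of 1296 resistant and 8.17% of 416 parental peaks, and at 5 or more it held 24.1% of 547 and 44.6% of 242. Among reproducible peaks it held 37 of 63 (58.7%) in the resistant list and 19 of 26 (73.1%) in the parental list.

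The 7p call ended when the lists were cut to equal length, but held at a height of 5 or more. With the 1005 highest peaks of each list, which took the resistant list down to a height of 4.595, 7p held 151 resistant peaks (15.02%) and 169 parental peaks (16.8%; odds ratio 0.875, adjusted p = 0.694 in the exact test), and the EGFR stretch 122 (12.1%) and 128 (12.7%). It also ended without the 54 to 56 Mb stretch (odds ratio 0.620, exact test, adjusted p = 0.184), with peaks limited to reproducible ones (0.544, adjusted p = 1) and with peaks within 100 kb joined into 1 (0.602, adjusted p = 0.466).

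Within the EGFR stretch both lists followed the same outline. In steps of 100 kb, peaks were densest at 55.1 to 55.2 Mb, in the first intron of EGFR, with 24 resistant and 28 parental peaks. The next step, 55.2 to 55.3 Mb, held 20 and 19. A further rise at 54.9 to 55 Mb, between SEC61G and EGFR, held 14 and 10, and 55.5 to 55.6 Mb in VOPP1 held 15 and 12. From 55.7 to 56 Mb neither list had a peak. Counted with 10 kb on either side, EGFR held 49 resistant and 51 parental peaks, VOPP1 20 and 16, LANCL2 8 and 5, VSTM2A 6 and 6, and SEC61G 1 and 1. The 5 genes thus held peaks in both lists, and all 5 also held peaks in both wild-type IgG lists.

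**Figure D2:**
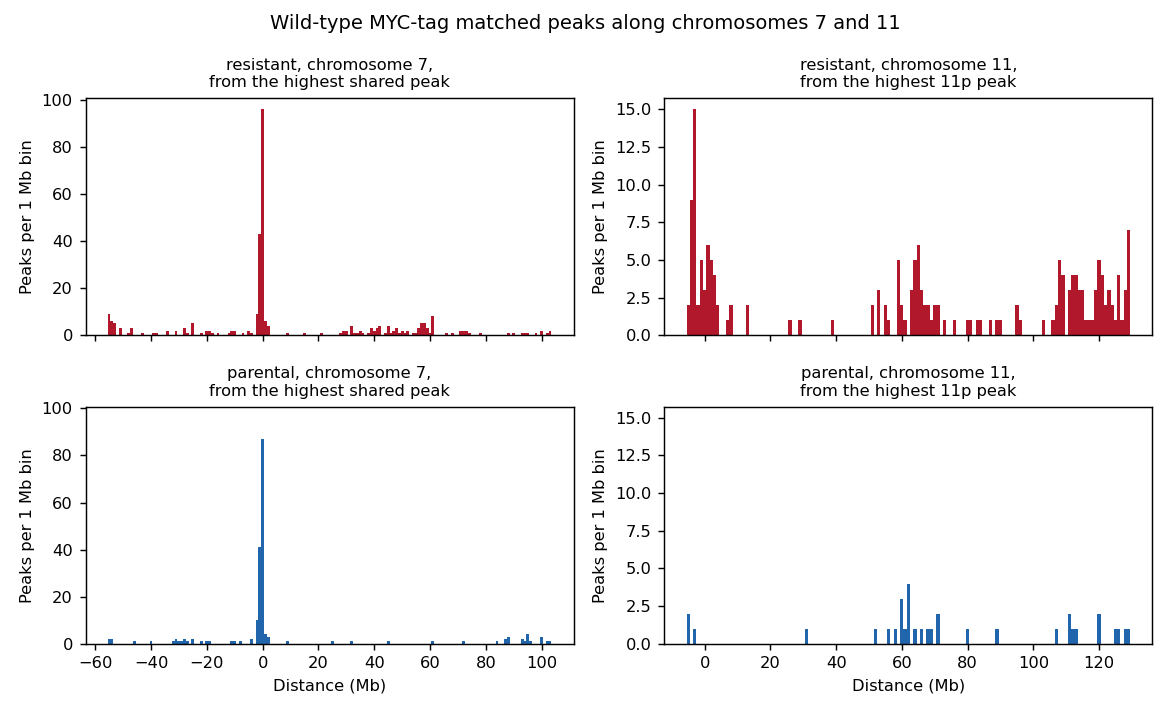
Matched peaks per 1 Mb bin (y axis) along chromosome 7 (left) and chromosome 11 (right), resistant above parental. The x axis is the distance in Mb from the centre of the highest shared peak of chromosome 7 or of the highest 11p peak. The 2 highest bins of chromosome 7 hold 96 and 43 resistant and 87 and 41 parental peaks, and the highest 11p bin holds 15 resistant peaks and 1 parental peak.

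The larger share of 11p was made of many peaks near the chromosome's end, mostly low, as in the whole resistant list. Of its 61 resistant peaks, 53 lay in the first 10 Mb, against 3 of the 4 parental peaks. The first 5 Mb held 33 resistant and 3 parental peaks, and the next 5 Mb held 20 and none, which allows up to 3 peaks in the parental list. The fullest 1 Mb bin, at 2 to 3 Mb, held 15 resistant peaks and 1 parental peak. Inside it lies KCNQ1, a voltage-gated potassium channel gene, with 9 resistant peaks and no parental peak. KCNQ1 was picked after its values were seen, and it held 8 resistant and 0 parental IgG peaks and 23 resistant and 1 parental METTL7A MYC-tag peaks.

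Heights of the 61 resistant 11p peaks ran from 3.06 to 7.46, with a median of 4.47, against 4.15 in the whole resistant list. Those of the 4 parental peaks ran from 3.28 to 4.41. Of 1296 resistant peaks below a height of 4, 11p held 2.01%, and of 547 at 5 or more it held 2.74%. At 5 or more there were 15 resistant 11p peaks and no parental peak. The highest lay at 11:5529673–5530930, with −log10 p-values of 8.55 and 7.46 in the 2 resistant replicates, and had no peak in the IgG or METTL7A MYC-tag lists. The second, at 11:2937741–2938227, had 6.27 and 7.104. In KCNQ1 the highest, at 11:2736362–2739393, had 6.16 and 9.06. No 11p peak was reproducible, the lowest global irreproducible discovery rate being 0.136 in the resistant and 0.722 in the parental list. Reproducible peaks were rare in the whole lists too (63 of 2767 resistant and 26 of 1005 parental), so their absence does not set 11p apart. No 11p position was in both lists (0 of 61, exact 95% interval up to 5.87%). Outside the EGFR stretch 3.42% of all resistant peaks were in both, which that interval includes. Of the 61, 6 (9.84%) overlapped a resistant IgG peak and 7 (11.5%) a resistant METTL7A MYC-tag peak, close to the 12.8% and 9.43% of all 2767 resistant peaks. The call held in lists of equal length, with 28 resistant and 4 parental peaks. It ended at a height of 5 or more (15 against 0, exact test, adjusted p = 0.100) and with peaks within 100 kb joined (36 against 4, odds ratio 3.12, exact test, adjusted p = 0.424).

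No bin of 5 Mb or 1 Mb was called higher. Of 513 bins of 5 Mb with a peak, 2 (0.39%) were called by the exact test, both lower and both on chromosome 7. The bin at 55 to 60 Mb held 106 resistant and 94 parental peaks (3.83% and 9.35%; exact test, adjusted p = 1.11e-07), and that at 50 to 55 Mb held 55 and 53 (1.99% and 5.27%; adjusted p = 0.000169). Of 1393 bins of 1 Mb, 2 (0.144%) were called, again lower, at 55 to 56 Mb (96 and 87 peaks, exact test, adjusted p = 7.77e-07) and 54 to 55 Mb (43 and 41, adjusted p = 0.00986). These are the bins of the EGFR stretch, and none of the 4 was called in lists of equal length, where the bin at 55 to 56 Mb held 87 resistant and 87 parental peaks. The counts called higher were 0 at both sizes. At an unadjusted p of 0.05 or less in the Fisher tests there were 4 bins of 5 Mb and no bin of 1 Mb with a larger resistant share, against 13 and 11 with a smaller one.

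Of the 4 larger 5 Mb bins, 2 were those of 11p. The third, at 110 to 115 Mb of 7q, held 17 resistant peaks and none in the parental list (exact test, p = 0.0101, adjusted p = 0.790). It lies next to the bin of MET, the receptor gene amplified in some resistant tumours. MET's own bin, at 115 to 120 Mb, held 9 resistant peaks and 1 parental peak (exact test, unadjusted p = 0.307). The fourth, at 75 to 80 Mb of chromosome 1, held 11 and 0 (exact test, p = 0.0438, adjusted p = 1). A smaller resistant share that missed the threshold lay at the end of 16q, at 85 to 90 Mb, with 39 resistant and 31 parental peaks (1.41% and 3.08%; exact test, adjusted p = 0.252). That gap was widest at 88 to 89 Mb, with 9 resistant and 14 parental peaks (exact test, p = 0.000555, adjusted p = 0.258). Tested only among the 177 bins of 1 Mb with 5 or more peaks, that bin was called (exact test, adjusted p = 0.0327).

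On 7p the change of share differed between the MYC-tag and IgG pairs of wild-type cells. The IgG pair had 175 resistant peaks (6.92%) and 119 parental peaks (8.24%) there, an odds ratio of 0.828 (0.645 to 1.06), against 0.421 with the MYC-tag antibody. Zelen's exact test, which asks whether 2 odds ratios are equal, gave a two-sided adjusted p of 0.00201, and 7p was the only arm called of 41 (2.44%); 4 arms passed unadjusted. At 54 to 56 Mb the IgG pair had an odds ratio of 1.01 (0.723 to 1.42), against 0.363 (0.280 to 0.470) with the MYC-tag antibody. With each pair cut to lists of equal length the difference was no longer called (ratio of the odds ratios 0.788 in place of 0.509, exact test, adjusted p = 0.841). On 11p the IgG pair had 56 resistant and 19 parental peaks (odds ratio 1.70, 0.989 to 3.04), and the difference from the MYC-tag pair had an adjusted p of 0.482 in Zelen's exact test.

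METTL7A-expressing cells gave 272 resistant peaks (8.59%) and 285 parental peaks (12.5%) on 7p with the MYC-tag antibody, an odds ratio of 0.655 (0.547 to 0.784). Zelen's exact test against the wild-type pair gave an adjusted p of 0.0824. No arm of 41 was called in that comparison (0%), and 7 arms passed unadjusted in the exact test. On 11p those cells had 82 resistant and 15 parental peaks, an odds ratio of 4.00 (2.28 to 7.49), against 5.64 in wild-type cells (Zelen's exact test of the difference, adjusted p = 0.919). Both MYC-tag pairs thus had a larger 11p share in resistant cells. Their lists do not overlap in samples, but by their labels both compare HCC827-OR with parental HCC827 cells. They therefore do not repeat the comparison in another line. The IgG pair leaned the same way (odds ratio 1.70), with an interval of 0.989 to 3.04 that includes 1. In the METTL7A pair 7 of 42 arms (16.7%) were called, and in the IgG pair 1 of 42 (2.38%), which was 12q. On 12q, the arm of CDK4, the wild-type MYC-tag odds ratio was 1.19 (0.877 to 1.62), against 2.00 in the IgG and 1.62 in the METTL7A pair, and the difference from the IgG pair had an adjusted p of 0.406 in Zelen's exact test. Over the 513 bins of 5 Mb the lowest adjusted p of a difference was 0.0716 against IgG and 0.152 against METTL7A.

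**Figure D3:**
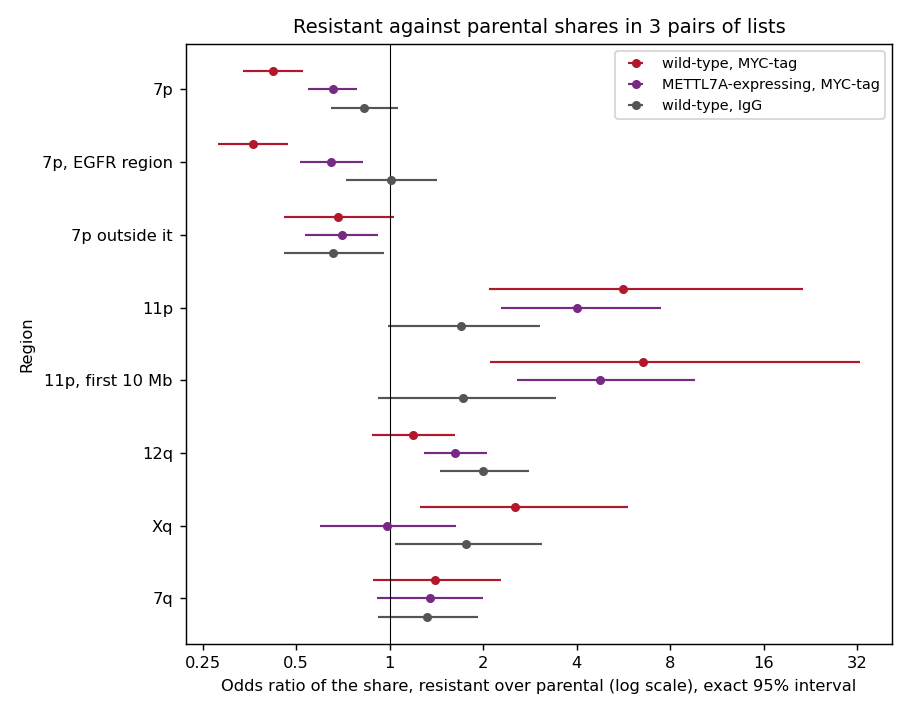
Odds ratio of the share of peaks, resistant over parental, on a log axis, with exact 95% intervals, for 8 regions in the wild-type MYC-tag, METTL7A-expressing MYC-tag and wild-type IgG pairs. On 7p the 3 odds ratios are 0.421, 0.655 and 0.828, and on 11p 5.64, 4.00 and 1.70.

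Few positions were in both lists, and about as many of them lay around EGFR as in the rest of the genome. With an overlap of 1 bp or more, 184 resistant peaks (6.65%, 5.75 to 7.64) met a parental peak, and 188 parental peaks (18.7%, 16.3 to 21.3) met a resistant one. Of the 184, 94 lay at 54 to 56 Mb of chromosome 7, 23 on 12q and 67 elsewhere, on 23 arms including the rest of 7p. In the EGFR stretch 94 of 139 resistant peaks (67.6%, 59.2 to 75.3) and 96 of 128 parental peaks (75%, 66.6 to 82.2) were shared. Elsewhere the shares were 90 of 2628 (3.42%, 2.76 to 4.19) and 92 of 877 (10.5%, 8.54 to 12.7). Dense peaks overlap more often by position alone, and that part of the overlap was not tested. On 12q, 23 of 197 resistant and 24 of 61 parental peaks were shared, and on 6p 9 of 55 and 9 of 23.

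Sharing was more frequent among higher peaks in both lists. Under a height of 5, 64 of 2220 resistant peaks (2.88%) and 73 of 763 parental peaks (9.57%) were shared. At 9 or more the counts were 30 of 48 (62.5%, 47.4 to 76.0) and 25 of 27 (92.6%, 75.7 to 99.1). Of the reproducible peaks, 40 of 63 resistant ones (63.5%) had any parental peak at their place, and 24 of 26 parental ones (92.3%, 74.9 to 99.1) had a resistant peak. Shared peaks had a median height of 5.94 in the resistant and 5.41 in the parental list, and unshared peaks 4.07 and 4.21. Much of this lay in the EGFR stretch, where shared peaks had medians of 6.81 and 6.47, against 4.97 and 4.70 outside it. That stretch held 31 of the 40 reproducible shared resistant peaks and 17 of the 24 parental ones. The shares by height were not counted without it. Shared peaks were also wider, with medians of 1002 and 865 bp against 584 and 610 bp. Wider peaks overlap more readily, and that was not tested. The centres of overlapping peaks lay a median of 149 bp apart.

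Ranked by height in the resistant list, 4 of the 10 highest shared positions were on 7p, 5 on 12q and 1 on 1p, all at gene starts or in gene bodies. This choice favours high resistant values, so no direction is read from these positions. By parental height the first 4 were the starts of LANCL2 (15.6) and B4GALNT1 (14.3), a peak in EGFR (14.07) and the start of SEC61G (14.07). In VOPP1, a gene co-amplified with EGFR, the peak at 7:55516176–55518123 had −log10 p-values of 27.6 and 24.0 in the resistant replicates, against 4.82 and 5.61 in the parental ones. The start of VSTM2A, which encodes an immunoglobulin-domain protein, had 23.1 and 24.3 in resistant cells (7:54609560–54610354), against 13.4 and 17.4 in parental cells. A peak in AGAP2, a GTPase-activating protein gene beside CDK4, had 20.5 and 35.6 (12:58119244–58122062) in resistant cells, against 3.38 and 28.8 in parental cells. The parental replicates of AGAP2 and the parental and resistant values of VOPP1 thus lay far apart, while all 4 values of VSTM2A were high.

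Positions with both replicates high in both lists included the start of TBK1, an innate immune kinase gene whose promoter holds 1 E-box (12:64845526–64846351). It had 18.3 and 29.8 in resistant cells, against 12.6 and 23.6 in parental cells. At the start of CDK4, the cell-cycle kinase gene with 3 E-boxes, resistant cells had 13.3 and 17.7 (12:58145850–58146557), against 12.8 and 12.4 in parental cells. LANCL2, a gene of the lanthionine synthetase-like family, had 24.9 and 15.8 at its start in resistant cells (7:55433158–55434417), against 15.6 and 34.4 in parental cells. At TBK1 and LANCL2 the values of the lists overlapped. At CDK4 the resistant values were the higher, an order that choosing positions by resistant height favours, so no direction is read from it.

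Outside the 10, the start of SEC61G, a subunit gene of the protein translocation channel, had 21.3 and 13.05 in resistant cells, against 14.1 and 15.4 in parental cells, and no E-box in its promoter. In EGFR the peak at 7:55228397–55229354 had 25.4 and 17.4 in resistant cells, against 6.27 and 14.7 in parental cells. Outside 7p and 12q the highest shared peak lay in HFM1, a meiotic helicase gene (1:91852813–91853107), with 20.2 and 21.6 in resistant cells, against 20.6 and 10.2 in parental cells. The other 2 of the 10 highest were in B4GALNT1, a ganglioside synthase gene, and at the start of ARHGEF25, a guanine nucleotide exchange factor gene, both beside CDK4. Of these 10, 9 also had an IgG peak of wild-type cells, the exception being HFM1, and 6 had a METTL7A MYC-tag peak. The starts of VSTM2A, LANCL2 and TBK1, and that of SEC61G, had IgG peaks and no METTL7A MYC-tag peak. In that order the IgG heights were 12.9, 19.3, 17.5 and 14.9 in resistant cells, and 8.91, 13.9, 6.09 and 20.8 in parental cells. At the start of CDK4 the IgG height was 8.45 in resistant cells, with no parental IgG peak. Some IgG heights thus matched or passed those with the MYC-tag antibody, on scales that differ between lists.

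**Figure D4:**
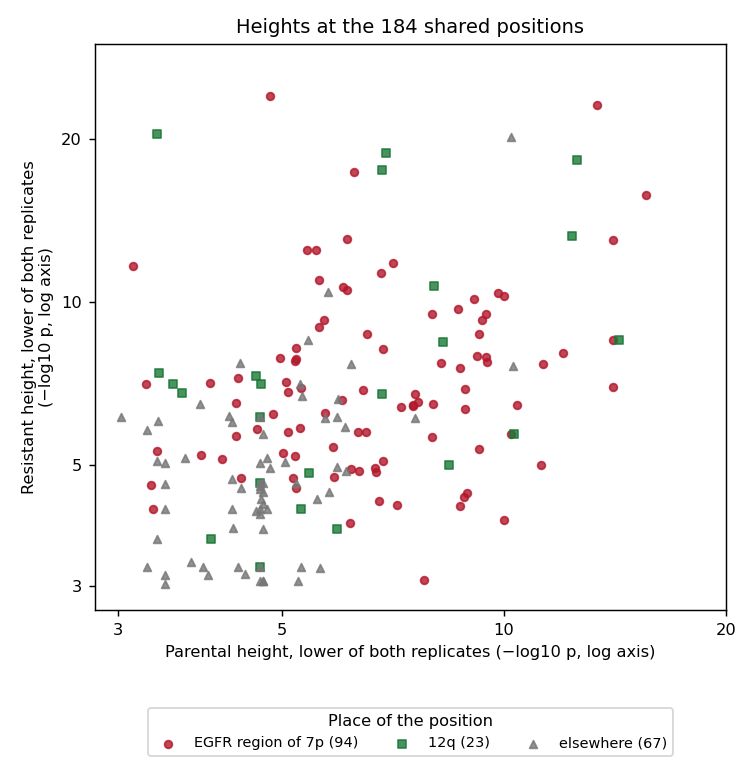
Height of each of the 184 shared resistant peaks (y axis) against the height of its parental peak (x axis), both as the lower −log10 p of 2 replicates on log axes. Medians were 6.81 and 6.51 in the EGFR region, 7.07 and 5.44 on 12q, and 4.65 and 4.67 elsewhere.

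Heights at shared positions followed each other loosely, with a Spearman correlation of 0.430 over 184 positions that share libraries and regions. The scale of a height differs from list to list. In 86 of the 184, all 4 replicates' values were 5 or more, and 63 of these lay in the EGFR stretch and 10 on 12q. In the EGFR stretch the medians were 6.81 in the resistant and 6.51 in the parental list. On 12q they were 7.07 and 5.44, and elsewhere 4.65 and 4.67.

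Peaks of the resistant list with no parental peak reached a height of 14.3, against 24.0 among shared ones. The 10 highest unshared peaks had heights from 10.3 to 14.3, which overlap the 13.3 to 24.0 of the 10 highest shared ones. All 10 unshared peaks were reproducible, with 3 on 7p. The highest lay at 7:54945651–54946250, between SEC61G and EGFR, with 25.9 and 14.3 in the 2 replicates. The start of CACHD1, a gene related to calcium channel subunits, had 11.9 and 15.7 (1:64935350–64936544) and a resistant IgG peak of 4.05. That of SYDE2, a GTPase-activating protein gene, had 15.8 and 11.1 (1:85665972–85666648). Its wild-type IgG peaks had heights of 13.3 in resistant and 6.94 in parental cells. The start of FANK1, a gene of a fibronectin and ankyrin domain protein, had 19.9 and 10.6 (10:127584433–127585411) and no peak in the IgG or METTL7A MYC-tag lists. MDFIC, a gene of the MyoD inhibitor family on 7q, had 12.7 and 10.3 at its start (7:114561864–114562711), inside the 5 Mb bin beside MET, and a resistant IgG peak of 6.23. On 6p a peak at 6:11594597–11594923 had 13.5 and 16.3, with a resistant IgG peak of 6.51. Another, in the fatty acid ester hydrolase gene ADTRP at 6:11754153–11755350, had 14.2 and 11.5 and no peak in the IgG or METTL7A MYC-tag lists. The other 3 of the 10 lay on 7p and at 4:190500796–190501603, with 10.6 to 11.5. Of these 10, 4 had a wild-type IgG peak, 5 a METTL7A MYC-tag peak and 2 neither.

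The 10 highest parental peaks with no resistant peak had heights from 7.28 to 11.9, on a scale that differs from that of the resistant list. They were taken from 817 such peaks, against 2583 in the resistant list. Over all of these unshared peaks the median was 4.21 in the parental and 4.07 in the resistant list. The highest, in VOPP1 at 7:55559758–55560602, had 16.8 and 11.9, and the second, at the start of the retinol dehydrogenase gene RDH10, had 10.4 and 15.01. These 2 were the only reproducible parental peaks without a resistant match, and their parental IgG peaks had heights of 12.3 and 3.68. A peak in EGFR at 7:55185839–55186463 had 8.89 and 9.82. From the fourth to the tenth the heights ran from 7.28 to 7.82. Among them were the start of HOXA9, a homeobox gene of 7p whose promoter holds 1 E-box, with 7.28 and 11.2 (7:27204553–27205383), and a peak in MNT, a gene of a MYC antagonist that pairs with MAX, with 8.34 and 7.82 (17:2296718–2297326). The last of the 10 lay at the start of LGALSL, a galectin-like gene, with 7.28 and 7.82. Of these 10, 6 had a wild-type IgG peak and 4 had neither an IgG nor a METTL7A MYC-tag peak.

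Shared peaks were far more often in the other lists than unshared ones. They were also wider and higher, and wider peaks overlap any list more readily, a part that was not tested. A wild-type IgG peak of either cell state overlapped 115 of 184 shared resistant peaks (62.5%, 55.1 to 69.5) and 325 of 2583 unshared ones (12.6%, 11.3 to 13.9). In the parental list it overlapped 119 of 188 shared peaks (63.3%, 55.98 to 70.2) and 135 of 817 unshared ones (16.5%, 14.04 to 19.3). Peaks of METTL7A-expressing cells overlapped 58.7% of shared and 9.72% of unshared resistant peaks, and 59.04% (111 of 188) and 11.995% (98 of 817) of parental ones. Outside the EGFR stretch an IgG peak met 56.7% of 90 shared resistant peaks and 12.2% of 2538 unshared ones. A METTL7A MYC-tag peak met 32.2% and 8.67% there. In neither kind of list were 37 of 184 shared resistant peaks (20.1%) and 2048 of 2583 unshared ones (79.3%), against 36 of 188 (19.1%) and 604 of 817 (73.9%) in the parental list. Unshared resistant peaks met resistant IgG peaks in 9.83% and parental IgG peaks in 3.99% of cases, from IgG lists of 2529 and 1444 peaks. Unshared parental peaks met them in 8.32% and 9.67%.

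**Figure D5:**
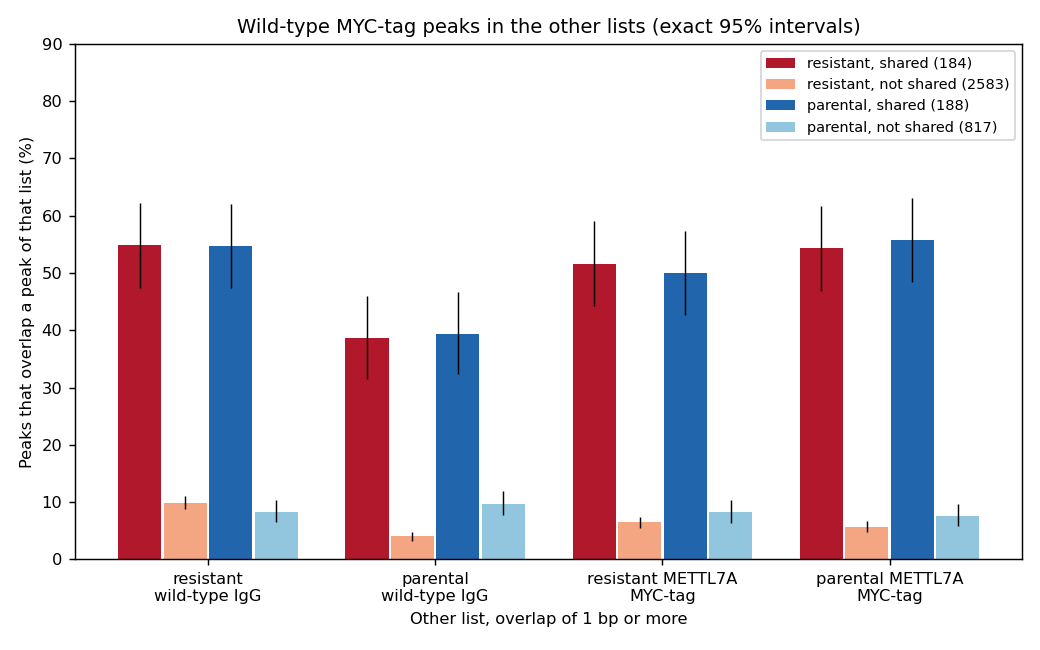
Share of wild-type MYC-tag peaks that overlap a peak of the 4 other lists by 1 bp or more (%, y axis from 0), with exact 95% intervals, for peaks shared between resistant and parental cells and peaks not shared. Shared peaks reach 38.6% to 55.9% and unshared peaks 3.99% to 9.83%.

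Peaks at genes known for cancer or for the MYC network were counted with 10 kb on either side of each gene. GRCh37 positions were at hand for 60 genes only, so no share over all genes stands beside these counts, and they do not show whether the lists hold many or few peaks for their size. Of 17 genes often amplified in lung cancer, 6 had a resistant and 5 a parental peak, with 4 in both. Those 4 were EGFR, CDK4, MYC and NKX2-1, the last a lung lineage factor with heights of 3.66 in the resistant and 3.28 in the parental list. MET had 1 resistant peak of 5.69 and no parental peak, and CCND1, the cyclin D1 gene of 11q, had 2 resistant peaks up to 5.92 and none in the parental list. With IgG, MET had 2 resistant peaks up to 4.43 and CCND1 had 1 of 7.02, and neither had a parental peak. PIK3CA, a lipid kinase gene, had 1 parental peak of 4.67, and with IgG 1 resistant peak of 3.17. The other 10 genes had no peak in either list. The IgG lists had 6 of 17 in resistant and 3 of 17 in parental cells.

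Of 17 genes known from resistance to EGFR inhibitors, 2 had a resistant peak and 1 a parental peak, with none in both. The resistant ones were MET and NRG1, which encodes a ligand of ERBB3, with 4.25. ERBB2, ERBB3, AXL and BRAF were among those with none in either list, and the IgG lists had 4 of 17 and 3 of 17. Of 12 genes of the MYC network, 4 had a resistant and 3 a parental peak. MYC itself had 5.10 in the resistant and 3.39 in the parental list. MNT had 3.24 in the resistant and 7.82 in the parental list. MAX, the partner of MYC, had 5.47 and NME1, a nucleoside diphosphate kinase gene, 5.71 in the resistant list alone. With IgG, MAX had a resistant peak of 4.56 and no parental peak, and NME1 had neither. NCL, the nucleolin gene, had 4.02 in the parental list alone. The IgG lists had 2 of 12 in resistant and 1 of 12 in parental cells. Long genes meet a scattered peak more often, and gene length was not weighed in these counts.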

How the data were processed

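The data are lists of peaks from chromatin immunoprecipitation and sequencing, with 2 replicates behind each list and 20 M paired-end reads planned for every library according to the labels. Among the tools in the submitters' processing notes are Bowtie2 2.4.2, SAMtools 1.16, MACS2 2.2.7.1 and bedtools 2.30, their roles unstated, and the build is GRCh37. The peak heights are −log10 p-values that the authors deposited for each replicate (columns 15 and 19 of 20), with the global irreproducible discovery rate, also as −log10, for their match. The control and filters of peak calling are not stated in the labels. Read depth is unknown.

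All peaks were assigned by their centres to arms (GRCh37 bounds entered by hand) and to bins of 1 and 5 Mb with Python 3.11.15, pandas 2.3.3 and scipy 1.17.1. Fisher's exact test (two-sided) was run on each share, adjusted by the Benjamini-Hochberg method over all units, and changes between pairs of lists by Zelen's exact test. Odds ratios carry exact 95% intervals, those given for other settings instead had 0.5 added to each count, and shares carry Clopper-Pearson intervals. The tests were checked on simulated data in which peaks were drawn independently, so the check does not cover peaks that cluster. Gene positions on GRCh37 were entered by hand for 60 genes and agreed in chromosome and length with the RefSeq GRCh38.p14 table for 60 of 60; a start counts as under a peak within 250 bp. Positions named were the 10 highest shared, resistant-only and parental-only peaks, with all called arms and bins. The lists, members and tests were chosen with earlier results of these data known.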

Additional observations from a re-analysis of the deposited data

Results flagged for a closer look

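On 7p the odds ratio of the resistant over the parental share was 0.421 for wild-type MYC-tag peaks and 0.828 for wild-type IgG peaks. This was singled out because the difference between the pairs passed Zelen's exact test (adjusted p = 0.00201). The shares were 7.84% of resistant and 16.8% of parental MYC-tag peaks, and 6.92% of resistant and 8.24% of parental IgG peaks. With each pair cut to lists of equal length the ratio of the odds ratios was 0.788 (exact test, adjusted p = 0.841). The part of list length, read depth and DNA copy number in it was not tested beyond that setting.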

How the results depend on the processing

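Odds ratios here have 0.5 added to each count. Arms called higher numbered 0 in place of 1 among reproducible peaks, at a height of 5 or more in both replicates or in the second, and with peaks within 100 kb joined. Arms called lower numbered 0 in place of 1 among reproducible peaks, in lists of equal length, with peaks joined, and without chromosome 7 or its 54 to 56 Mb, the last a setting added after the data were seen. The 7p odds ratio of 0.421 became 0.544, 0.875, 0.620 and 0.602 among reproducible peaks, in lists of equal length, without 54 to 56 Mb and with peaks joined, none called. That of 11p, 5.06, became 14.1, 5.15 and 3.12 at 5 or more in both replicates, in the second and with peaks joined, none called (exact tests, adjusted p = 0.100, 0.0589 and 0.424), and no 11p peak was reproducible. Called 5 Mb bins, 2 and lower, numbered 1 at 5 or more in both replicates and 0 among reproducible peaks, in lists of equal length, with peaks joined and without chromosome 7 or its 54 to 56 Mb. Called 1 Mb bins numbered 1 at 5 or more in both replicates and in either alone, 0 in the same 5 settings, and 3 in place of 2 among bins with 5 or more peaks, the added one at 88 to 89 Mb of chromosome 16. Among reproducible peaks the odds ratio of 55 to 60 Mb and of 55 to 56 Mb of chromosome 7 turned to 1.04 (25 resistant and 10 parental peaks). Shared positions, 6.65% of the resistant and 18.7% of the parental list, were 23.8% and 57.7% among reproducible peaks, 15.7% and 37.2% at 5 or more in both replicates, 8.20% and 27.9% in the first, 12.7% and 25.7% in the second, and 13.7% and 14.1% in lists of equal length. They were 3.38% and 10.4% without chromosome 7, 3.42% and 10.5% without 54 to 56 Mb, 4.55% and 12.5% with an overlap of 50% of both peaks, and 5.49% and 15.2% with centres within 500 bp. Arms that differed from the IgG pair numbered 0 in place of 1 at 5 or more in both replicates and in lists of equal length, where the ratio of 7p odds ratios, 0.509, became 0.754 and 0.788. Against the METTL7A pair that ratio, 0.642, turned to 1.09 in lists of equal length. The cause of these changes was not tested. Leaving out a replicate was replaced by heights of the first or the second replicate alone. No paired analysis was possible because each list already combines both replicates. Read depth is unknown, and arms with few peaks allow wide intervals.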

Other observations

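Reproducible resistant peaks with no parental peak numbered 23. On 7p lay 6 of them, with heights of 8.40 to 14.3, on 12q 5 (7.97 to 9.96), on 6p 4 (8.06 to 13.5), on 7q 2 and on 1p 2, with 1 each on 4q, 8q, 10q and 20q. A METTL7A MYC-tag peak overlapped 13 of the 23 and a wild-type IgG peak 11, and 5 had neither. Of those on 6p, 3 lay in ADTRP and 1 at 6:11594597–11594923, with no listed gene. At 11 to 12 Mb of that arm the resistant list held 30 peaks and the parental list 14, shares of 1.08% and 1.39% with an odds ratio of 0.776 (exact 95% interval 0.397 to 1.59). The METTL7A MYC-tag lists held 30 resistant and 42 parental peaks there (odds ratio 0.508, 0.306 to 0.834), and the wild-type IgG lists 13 and 2 (3.72, 0.841 to 34.0). These are descriptions of places picked after their values were seen, and the intervals cover counting error only.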
